A study of Rattus norvegicus with 9 samples.

Results

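The 9 genes described here are markers of the epicardial lineage (Tcf21, Wt1), transcription factors of epithelial-mesenchymal transition (Twist1, Snai1, Snai2, Zeb1) and surface or cytoskeletal markers of fibroblasts (Thy1, Ddr2, Vim). They were chosen by name with earlier results of these data known. By symbol, all 9 of 9 were found among the 17337 genes of the count table. All 9 passed the filter on low counts and so stand among the 11337 genes tested. RNA was sequenced from cardiac fibroblasts of Sprague Dawley rats at 3 ages, with 3 libraries an age: fetal at embryonic day 18 (E18), neonatal at postnatal day 1 (P1) and adult at 7 weeks. The cells of all 3 groups were primary cultures at passage 0, grown until confluent in DMEM with 10% fetal bovine serum, 0.1 mM ascorbic acid and antibiotics, then lysed in TRIzol. No transgene, knockout or drug treatment separates the groups, and the labels name no sort for a surface marker, so each library holds the RNA of every cell in the flask. The labels do not say whether the 3 libraries of an age came from separate animals or separate cultures, so the p-values measure the spread between these libraries, which may be technical.

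Most fibroblasts of the heart descend from the epicardium, the cell sheet that covers the heart. Epicardial cells lose their junctions and move into the heart wall by epithelial-mesenchymal transition (EMT), and transcription factors of the Snail, Twist and Zeb families drive this step by repressing junction genes such as the one for E-cadherin. Wt1 is a zinc-finger factor of the epicardium that falls silent in most cells that leave it, whereas Tcf21 is a basic helix-loop-helix factor that epicardial cells need to become fibroblasts and that resting cardiac fibroblasts keep. Thy1 (CD90) is a glycolipid-anchored surface protein, Ddr2 a receptor tyrosine kinase activated by fibrillar collagen, and Vim the intermediate filament protein vimentin of mesenchymal cells.

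Total gene counts ran from 13392825 to 13810825 in the adult libraries, from 16277129 to 22141173 in the fetal ones and from 16241217 to 22850491 in the neonatal ones. The label of fibroblasts was checked against a list of fibroblast genes (Pdgfra, collagens, Dcn, Lum and others), whose summed level was 24400 to 52800 CPM (read counts relative to the TMM-scaled library size) at E18, 70000 to 76300 at P1 and 22700 to 30000 in adult cultures. Col1a1 and Col3a1 made up most of that sum at every age, so it is not a share of fibroblasts. From neonatal to adult 4 of the 9 tested genes of the list were called higher and 4 lower, beside 31.6% and 31.8% of all genes tested. Col1a2, another collagen gene of the list, was listed at a mean of only 0.412 CPM for fetal, 0.722 for neonatal and 0.348 for adult cultures, beside 26030, 37800 and 14960 CPM for Col1a1. This value may reflect the gene model of Col1a2 in the annotation used for counting, which was not tested, and is not read as a level of its RNA. Fetal replicate 3 stood apart from the other fetal libraries. Its distance on the log2 CPM scale was 77.5 to fetal replicate 1 and 77.1 to fetal replicate 2, whereas distances between the remaining libraries of an age were 23.5 to 56.3. Fetal replicate 3 also had 113 CPM of Cdh1 (E-cadherin), against 1.30 and 2.34 in fetal replicates 1 and 2, and 144 CPM of the keratin gene Krt8, against 10.1 and 11.3. Both genes were singled out after their values were seen. Its fibroblast list summed to 24430 CPM, against 52770 and 49940. Col1a1 (14800 CPM, against 32990 and 30310) and Col3a1 (7294, against 15890 and 15730) made up most of this difference. Dcn, Lum and Fstl1 were lower in fetal replicate 3 too, whereas Pdgfra (151, against 106 and 109), Gsn (222, against 213 and 203) and Dpt (3.83, against 0.270 and 0.353) were higher there. Where leaving out this library, or adult replicate 1, which had the highest adult level of 6 of the 9 genes, ended a call or moved a value strongly, the value without it is given beside the result.

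Snai1, Snai2 and Zeb1 encode proteins that bind E-boxes of the form CAGGTG. Promoter sequence is shown for 4 genes: the 3 whose promoter held this word (Wt1, Snai1 and Zeb1) and Tcf21, whose promoter did not. The printed genes were chosen with the matches known. The RefSeq promoter table for the assembly GRCr8 held 6 of the 9 genes (Tcf21, Wt1, Twist1, Snai1, Zeb1, Vim). The 250 bases before each annotated start are printed in the direction of transcription, with CAGGTG or its reverse complement CACCTG in capitals. They come from chr1:24520249-24520498 on the plus strand for Tcf21, chr3:112021759-112022008 on the plus strand for Wt1, chr3:176667226-176667475 on the plus strand for Snai1 and chr17:56810654-56810903 on the minus strand for Zeb1.
Tcf21: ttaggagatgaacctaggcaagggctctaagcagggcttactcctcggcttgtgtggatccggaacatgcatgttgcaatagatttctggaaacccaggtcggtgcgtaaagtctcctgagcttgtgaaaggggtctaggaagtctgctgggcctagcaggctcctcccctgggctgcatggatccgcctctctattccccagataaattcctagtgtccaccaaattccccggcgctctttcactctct
Wt1: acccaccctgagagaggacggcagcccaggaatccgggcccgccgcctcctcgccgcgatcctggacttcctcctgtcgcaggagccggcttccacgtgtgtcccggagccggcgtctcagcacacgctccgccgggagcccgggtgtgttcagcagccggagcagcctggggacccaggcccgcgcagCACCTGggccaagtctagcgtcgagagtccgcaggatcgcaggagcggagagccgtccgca
Snai1: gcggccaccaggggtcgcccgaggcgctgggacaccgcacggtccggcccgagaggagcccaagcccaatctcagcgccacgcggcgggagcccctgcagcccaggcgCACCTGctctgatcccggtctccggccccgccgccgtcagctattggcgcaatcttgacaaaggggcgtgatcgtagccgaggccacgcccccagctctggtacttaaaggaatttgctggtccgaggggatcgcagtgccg
Zeb1: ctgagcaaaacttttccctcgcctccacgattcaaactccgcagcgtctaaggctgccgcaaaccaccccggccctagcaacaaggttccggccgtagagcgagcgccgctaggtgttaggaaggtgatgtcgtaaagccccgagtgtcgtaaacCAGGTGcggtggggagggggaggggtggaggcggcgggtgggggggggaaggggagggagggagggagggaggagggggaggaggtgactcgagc
The word CAGGTG, searched on both strands, occurred once each in the windows of Wt1, Snai1 and Zeb1, which is 3 of the 6 promoters read, and in 15.9% of all 33469 promoters of the same length. It lay 61 bases before the start of Wt1, 142 before that of Snai1 and 95 before that of Zeb1. G and C made up 71.6%, 69.6% and 65.2% of these windows, and 53.6%, 69.2% and 62.4% of those of Tcf21, Twist1 and Vim. The median over all promoters was 51.2%, and the shares with CAGGTG were not compared at equal G and C content. The general E-box CANNTG, which contains the CAGGTG matches, was present in 65.5% of all promoters and in 3 of the 6 read, with none in the windows of Tcf21, Twist1 and Vim. A match is a description of the letters, and no binding was measured here.

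Tcf21, Snai1, Snai2, Thy1 and Ddr2 were higher in neonatal than in fetal cultures, and none of the 9 genes was lower. The 4 others (Wt1, Twist1, Zeb1 and Vim) did not pass the test. From neonatal to adult cultures Wt1, Snai1 and Vim rose, and Snai2, Zeb1 and Ddr2 fell. From fetal to adult cultures Tcf21, Wt1, Snai1, Thy1 and Vim were higher and Snai2, Zeb1 and Ddr2 lower, with only Twist1 not called. All tests were edgeR quasi-likelihood tests in 1 fit of the 9 libraries, called at a Benjamini-Hochberg adjusted p under 0.05 over all genes tested. The 3 comparisons share libraries, since each age enters a pair of them.

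These counts stand against a large background of change with age. Of all genes tested, 36.3% were called between neonatal and fetal libraries (18.3% higher, 18% lower), beside 5 of the 9 genes. Between adult and neonatal libraries 63.5% were called (31.6% higher, 31.8% lower), beside 6 of the 9. Between adult and fetal libraries 70.5% were called (34.9% higher, 35.5% lower), beside 8 of the 9. Over any difference among the ages the background was 77.6%, beside 8 of the 9. Counted instead by libraries that did not overlap, 7 of the 9 genes separated neonatal from fetal cultures, 8 of the 9 adult from neonatal and 7 of the 9 adult from fetal, beside 57.4%, 76.1% and 71.8% of all genes. The median log2 fold change of the 9 genes was 0.52 from fetal to neonatal, 0.33 from neonatal to adult and 0.53 from fetal to adult, beside medians of -0.01 in each of these comparisons over all genes tested. The count of 0 lower genes from fetal to neonatal was also 0 at an unadjusted p under 0.05 and 0 with DESeq2. When neonatal replicate 2 or neonatal replicate 3 was left out, 3 of the 9 genes were called from fetal to neonatal. Without these libraries or neonatal replicate 1, the calls over all genes fell from 4114 to 2476, 2575 and 2607.

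**Figure D1:**
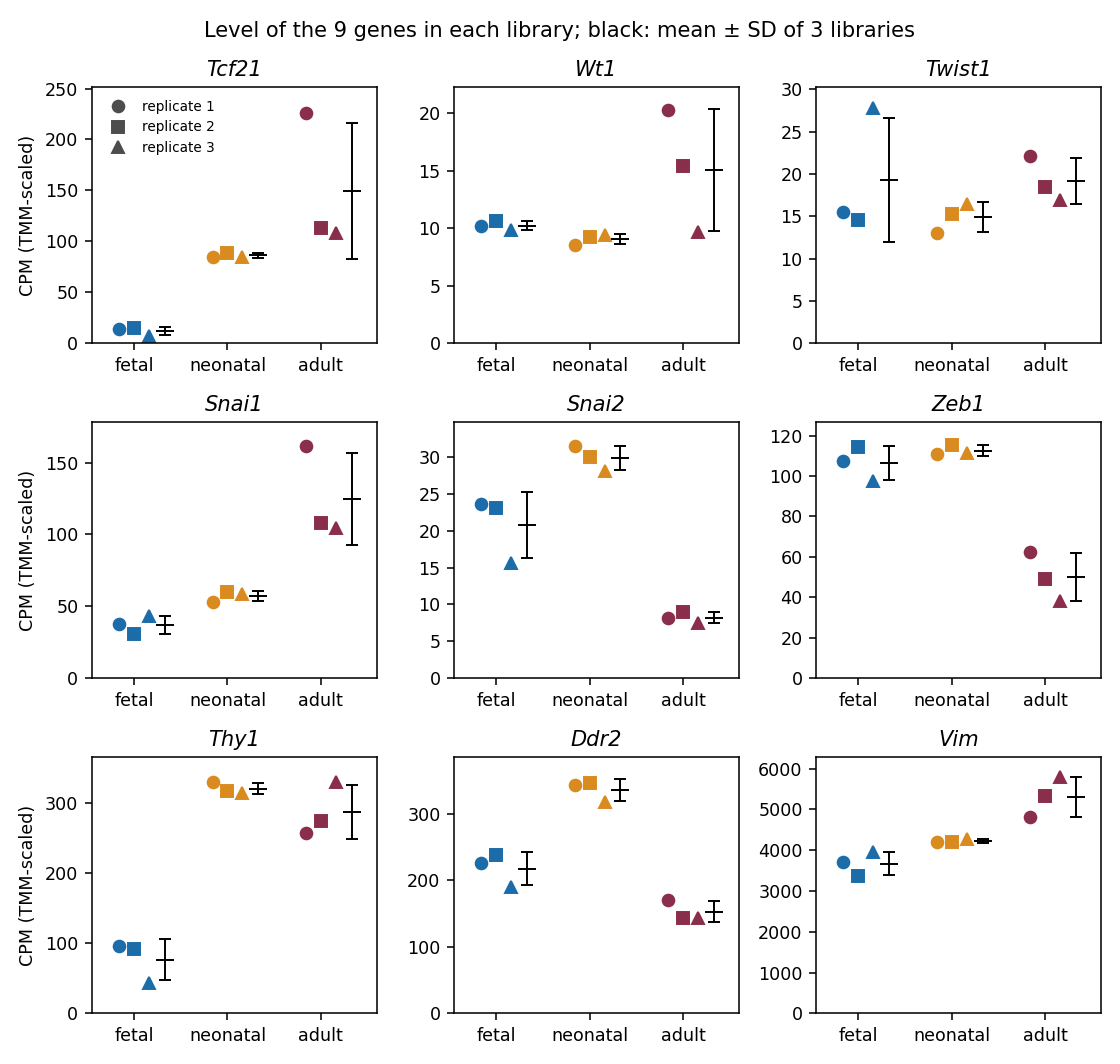
Level of each of the 9 genes in CPM (TMM-scaled, linear axis from 0) in the 3 fetal, 3 neonatal and 3 adult libraries, with marker shape for the replicate and black bars for mean ± SD. Tcf21 and Thy1 are low in all 3 fetal libraries, Snai2, Zeb1 and Ddr2 are lowest in the adult ones, and adult replicate 1 lies above the other adult libraries for Tcf21, Wt1 and Snai1.

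Tcf21 (rn6 chr1:23906717-23909568, plus strand, 2 exons) was the gene of the set that differed most in both comparisons with fetal cultures. Its level was 14.1, 14.4 and 6.91 CPM in fetal replicates 1, 2 and 3, 85.1, 88.5 and 84.7 CPM in the neonatal libraries, and 226, 113 and 108 CPM in the adult ones. The means were 11.8 ± 4.25 CPM in fetal, 86.1 ± 2.07 in neonatal and 149 ± 66.8 in adult cultures (SD, n = 3 each). The 3 ages did not overlap in any pair. The adult spread came mainly from replicate 1, which was far above the other adult libraries. Tcf21 rose 7.27-fold from fetal to neonatal (log2 2.86 ± 0.35 SE, edgeR adjusted p = 0.000545) and 12.6-fold from fetal to adult (log2 3.65 ± 0.36, adjusted p = 2.21e-05). The neonatal to adult difference of 1.73-fold did not pass (log2 0.79 ± 0.32, adjusted p = 0.0547). Over its alternatives this value ran from 0.36 to 0.98 on the log2 scale with adjusted p from 5.47e-06 to 0.311, and 1 library decided its size. Without adult replicate 1 the difference was 0.36 (adjusted p = 0.217), and without both adult replicate 1 and fetal replicate 3 it was again 0.36 but passed (adjusted p = 5.47e-06). Without adult replicate 2 (0.95, adjusted p = 0.0428) or adult replicate 3 (0.98, adjusted p = 0.0332) the test passed as well. In bulk cultures a smaller number of cells that express a gene and less of its RNA in each cell cannot be told apart, for this and every other gene.

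Wt1 (rn6 chr3:95133713-95180573, plus strand, 10 exons) was the least abundant of the 9 genes per length and moved little. It was at 10.2, 10.7 and 9.83 CPM in the fetal libraries, 8.59, 9.20 and 9.45 in the neonatal and 20.3, 15.4 and 9.66 in the adult ones. Adult replicate 3 lay just below the fetal libraries and above the neonatal ones, and adult replicate 1 had the highest level of all 9 libraries. The means were 10.2 ± 0.421, 9.08 ± 0.445 and 15.1 ± 5.31 CPM (SD, n = 3). Wt1 was not called from fetal to neonatal (log2 -0.17 ± 0.23, edgeR adjusted p = 0.572), although all 3 fetal libraries lay above all 3 neonatal ones. It was called 1.66-fold higher in adult than in neonatal cultures (log2 0.73 ± 0.23, adjusted p = 0.0177) and 1.47-fold higher than in fetal ones (log2 0.56 ± 0.22, adjusted p = 0.0471). Both calls ended without adult replicate 1: the log2 differences were then 0.46 (adjusted p = 0.0629) and 0.29 (adjusted p = 0.197). The adult to neonatal call also ended without neonatal replicate 1 (0.69, adjusted p = 0.0594). The adult to fetal call was lost in 16 of 20 alternatives, with adjusted p from 0.00134 to 0.543.

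The pair was therefore unequal in its course. Per kilobase of exon, the ratio of Tcf21 to Wt1 was 2.97, 2.90 and 1.51 in the fetal libraries, 21.3, 20.7 and 19.3 in the neonatal and 24.0, 15.8 and 24.0 in the adult ones. Every fetal library lay below every postnatal library in this ratio, which is given as a description with no test.

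Other genes of the epicardium were taken from a list of 19, of which 16 were in the table and 14 were tested. From fetal to neonatal 2 were higher and 7 lower, from neonatal to adult 5 were higher and 8 lower, and from fetal to adult 3 were higher and 9 lower. Among all genes tested 18.3% were higher and 18% lower, 31.6% and 31.8%, and 34.9% and 35.5%, in the same order. The medians on the log2 scale were -0.73, -0.87 and -1.79, beside -0.01 in each over all genes tested. Without fetal replicate 3 the counts were 2 and 8, 5 and 9, and 4 and 9, with a median of -1.36 from fetal to adult. Without adult replicate 1, 15 were tested, with counts of 2 and 9, 5 and 8, and 3 and 10 and medians of -0.92, -1.49 and -2.14. The list thus held genes that rose and genes that fell with age, with more of the latter.

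The genes that fell included Krt19, a keratin of simple and mesothelial epithelia, and Sema3d, a secreted guidance factor of the epicardium. Krt19 was at 27.4, 24.4 and 23.6 CPM in the fetal, 3.30, 2.79 and 3.50 in the neonatal and 0.0765, 0 and 0.2995 in the adult libraries (log2 -2.98 ± 0.24 from fetal to neonatal, adjusted p = 5.30e-05, edgeR). Sema3d was at 64.2, 76.0 and 41.3 CPM in the fetal, 33.1, 32.95 and 29.9 in the neonatal and 0.918, 1.01 and 0.2995 in the adult libraries, with a log2 change of -5.41 ± 0.35 from neonatal to adult (adjusted p = 2.13e-06, edgeR). Both genes were lowest in all 3 adult libraries, where they lay near the limit of counting.

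The genes that rose included Rarres2, which encodes the secreted chemoattractant chemerin, and Aldh1a2, the retinoic acid synthesis enzyme of the epicardium. Rarres2 was at 5.83, 4.63 and 1.54 CPM in the fetal, 26.2, 25.8 and 25.8 in the neonatal and 225, 167 and 139 in the adult libraries. It rose at both steps (log2 2.69 ± 0.36, adjusted p = 0.000817, and 2.77 ± 0.32, adjusted p = 8.08e-05, edgeR), the same order of mean levels over the ages as Tcf21. Aldh1a2 was at 115, 114 and 67.9 CPM in the fetal, 75.9, 74.9 and 73.8 in the neonatal and 437, 254 and 169 in the adult libraries. It was not called from fetal to neonatal (-0.40 ± 0.32, adjusted p = 0.353) and rose from neonatal to adult (1.94 ± 0.33, adjusted p = 0.000903, edgeR). Its adult order, with replicate 1 highest and replicate 3 lowest, was that of Wt1 and Tcf21.

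Tbx18, a T-box factor of epicardial progenitors, and Rspo1, a secreted amplifier of Wnt signalling, had opposite courses. Tbx18 had means of 16.6 ± 5.57, 43.9 ± 3.97 and 26.7 ± 1.62 CPM (SD, n = 3), and rose from fetal to neonatal by 1.40 on the log2 scale (adjusted p = 0.00158) and fell by 0.71 from neonatal to adult (adjusted p = 0.0164, edgeR). The second change was called in 8 of 9 fits with 1 library left out. Rspo1 had means of 27.0 ± 3.14, 8.25 ± 0.680 and 24.9 ± 4.47 CPM, with log2 changes of -1.71 (adjusted p = 7.20e-05) and 1.59 (adjusted p = 1.75e-05, edgeR). Fetal and adult levels of Rspo1 were not separated by the test (-0.12, adjusted p = 0.468).

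**Figure D2:**
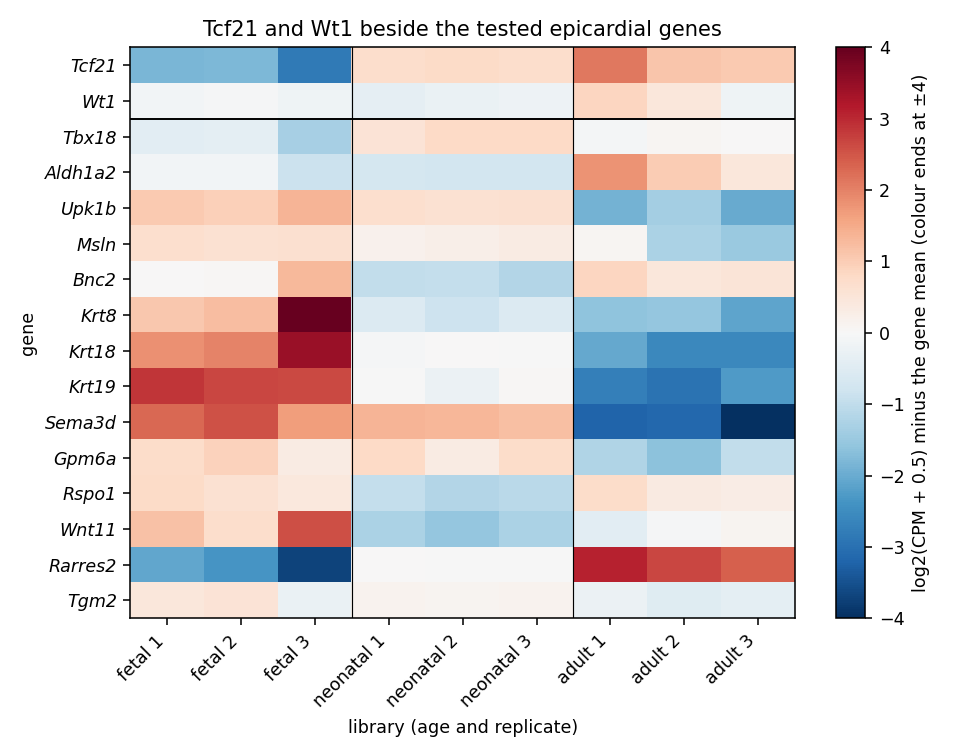
Tcf21 and Wt1 (above the line) beside the 14 tested genes of the epicardial list, each library (column) shown as log2(CPM + 0.5) minus the mean of the gene, with colours that end at ±4. Tcf21 and Rarres2 run from low in fetal to high in adult libraries, Krt19 and Sema3d run the opposite way, and fetal replicate 3 differs from the other fetal libraries in Krt8, Krt18 and Wnt11.

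Snai1 and Snai2 encode the Snail factors SNAI1 and SNAI2 (Slug), close relatives that repress E-cadherin, and they moved apart in the adult cultures. Snai1 (rn6 chr3:164274710-164279196, plus strand, 3 exons) was at 37.6, 30.6 and 43.0 CPM in the fetal, 53.2, 60.0 and 58.6 in the neonatal and 161, 108 and 105 in the adult libraries. No pair of ages overlapped, and the means were 37.1 ± 6.24, 57.3 ± 3.61 and 125 ± 31.8 CPM (SD, n = 3). Snai1 rose at each step: 1.55-fold from fetal to neonatal (log2 0.63 ± 0.18, edgeR adjusted p = 0.0245), 2.18-fold from neonatal to adult (1.12 ± 0.18, adjusted p = 0.000500) and 3.36-fold over the whole interval (1.75 ± 0.18, adjusted p = 2.50e-05). It was the only gene of the 9 called higher in all 3 pairs, as were 8.19% of all genes, and none of the 9 was called lower in all 3, as were 7.99% of all genes. The first step lost its call without fetal replicate 1, fetal replicate 2, neonatal replicate 2 or neonatal replicate 3 (adjusted p = 0.0522, 0.0677, 0.0734 and 0.0648), with log2 differences of 0.51 to 0.75 over all libraries left out in turn.

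Snai2 (rn6 chr11:90404421-90406730, minus strand, 3 exons) was at 23.6, 23.1 and 15.7 CPM in the fetal, 31.4, 30.1 and 28.1 in the neonatal and 8.19, 9.03 and 7.49 in the adult libraries. The neonatal libraries were the highest and the adult ones the lowest, with no overlap (means 20.8 ± 4.43, 29.9 ± 1.68 and 8.23 ± 0.771 CPM, SD, n = 3). It was 1.44-fold higher in neonatal than in fetal cultures (log2 0.52 ± 0.15, edgeR adjusted p = 0.0247). It then fell 3.62-fold from neonatal to adult (-1.86 ± 0.16, adjusted p = 1.15e-05) and was 2.52-fold lower in adult than in fetal cultures (-1.33 ± 0.16, adjusted p = 6.28e-05). Its fetal to neonatal call ended without neonatal replicate 1, 2 or 3 (adjusted p = 0.0823, 0.0739 and 0.0503). Snai2 and Ddr2 were the 2 genes of the set that were higher in neonatal than in fetal and lower in adult than in neonatal cultures, as were 4.53% of all genes. The opposite course, lower and then higher, was seen in none of the 9 and in 4.01% of all genes.

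Per kilobase of exon, the ratio of Snai2 to Snai1 was 1.24, 1.49 and 0.720 in the fetal libraries, 1.17, 0.991 and 0.947 in the neonatal and 0.100, 0.165 and 0.142 in the adult ones. The mean ratio was 1.15 ± 0.393 in fetal, 1.04 ± 0.117 in neonatal and 0.136 ± 0.0329 in adult cultures (SD, n = 3, no test). The exon length was 807 bases for Snai2 and 1596 for Snai1. Whether these gene models hold the whole transcripts was not tested. On these lengths the adult libraries held several times more Snai1 than Snai2 RNA, whereas mean levels were near each other at the younger ages. The same lengths served at every age, so the lower ratio in adult libraries does not rest on them. Snai3, the remaining Snail gene, stayed at or under a mean of 1.14 CPM at every age and was not tested.

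Zeb1 (rn6 chr17:54656627-54714914, minus strand, 7 exons) encodes a zinc-finger and homeodomain repressor of epithelial genes. It was at 107, 114 and 97.5 CPM in the fetal, 111, 115.5 and 111.5 in the neonatal and 62.3, 49.0 and 38.4 in the adult libraries. Fetal and neonatal libraries overlapped, and all 3 adult ones lay below them (means 106 ± 8.46, 113 ± 2.54 and 49.9 ± 11.96 CPM, SD, n = 3). Zeb1 fell 2.26-fold from neonatal to adult (log2 -1.17 ± 0.15, edgeR adjusted p = 0.000108) and was 2.13-fold lower in adult than in fetal cultures (-1.09 ± 0.15, adjusted p = 0.000124). The fetal to neonatal difference was 0.08 ± 0.14 (adjusted p = 0.681), and it was -0.08 when libraries were scaled by their totals alone.

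Zeb2, its paralogue, had another course: 85.4, 99.7 and 65.3 CPM in the fetal, 207, 201 and 179 in the neonatal and 150, 145 and 129 in the adult libraries. It was higher in neonatal than in fetal cultures (log2 1.23 ± 0.14, edgeR adjusted p = 0.000301), lower in adult than in neonatal (-0.47 ± 0.14, adjusted p = 0.0152, called in 7 of 9 fits with 1 library left out) and higher in adult than in fetal (0.76 ± 0.14, adjusted p = 0.000884). The ratio of Zeb1 to Zeb2 per kilobase was 0.896, 0.820 and 1.07 in the fetal libraries, 0.383, 0.411 and 0.446 in the neonatal and 0.297, 0.241 and 0.212 in the adult ones. The ratio thus did not overlap between any pair of ages (description, no test).

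Twist1 (rn6 chr6:53401241-53403234, plus strand, 2 exons), a basic helix-loop-helix factor of mesenchyme, was the gene of the set with no call at any age (edgeR adjusted p = 0.288 over any difference among the ages). It was at 15.5, 14.6 and 27.7 CPM in the fetal, 12.99, 15.2 and 16.4 in the neonatal and 22.1, 18.4 and 16.9 in the adult libraries. Fetal replicate 3 had the highest level of all 9 libraries, 1.84 times the mean of the other fetal ones, and this library decided the comparison. The log2 differences were -0.37 ± 0.24 from fetal to neonatal (adjusted p = 0.243), 0.37 ± 0.24 from neonatal to adult (adjusted p = 0.212) and -0.01 ± 0.24 from fetal to adult (adjusted p = 0.980). Without fetal replicate 3 the fetal to adult difference was 0.34 (adjusted p = 0.0364) and the neonatal to adult difference 0.36 (adjusted p = 0.0192), so that adult cultures were then called higher. Its paralogue Twist2 had means of 6.28 ± 2.02, 4.20 ± 0.861 and 5.36 ± 2.23 CPM and was not called in any pair, and the ratio of Twist1 to Twist2 per kilobase was 2.20 to 3.88 in all 9 libraries.

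**Figure D3:**
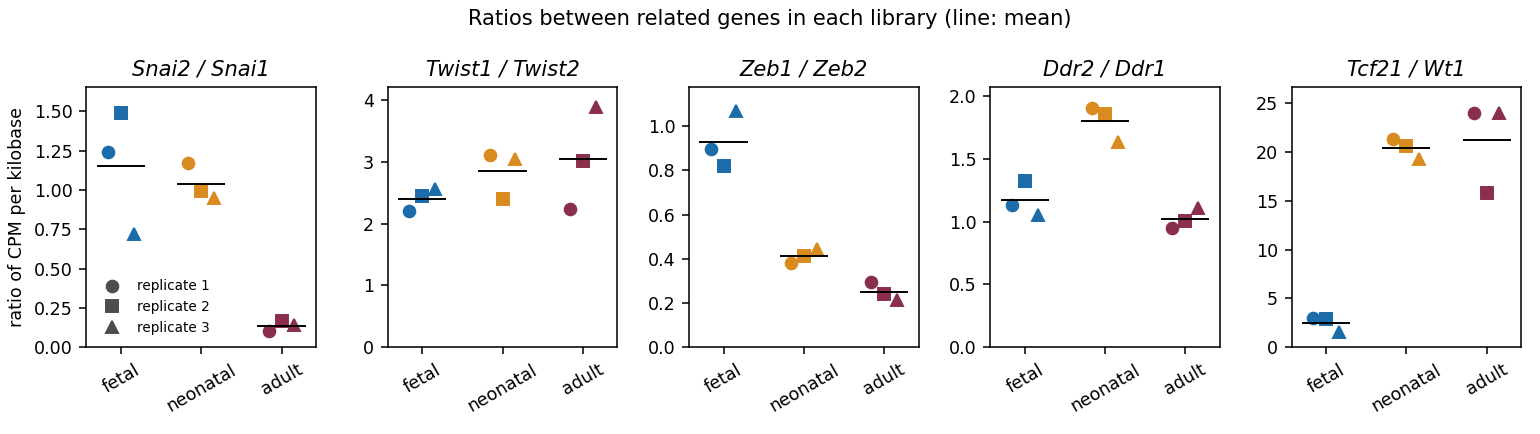
Ratio of the level per kilobase of exon between related genes in each of the 9 libraries (linear axes from 0, line for the mean of an age). Snai2 over Snai1 is 0.100 to 0.165 in the adult libraries and 0.720 or more in all others, Zeb1 over Zeb2 falls from fetal to adult, and Tcf21 over Wt1 is 2.97 or less in the fetal libraries and 15.8 or more in the others.

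Partners and regulators of these factors were read from a list of 21 genes, of which 18 were tested. From fetal to neonatal 5 were higher and 3 lower, from neonatal to adult 7 and 7, and from fetal to adult 8 and 8, with medians of 0.06, -0.11 and -0.28 on the log2 scale. Over all genes tested the shares higher and lower were 18.3% and 18%, 31.6% and 31.8%, and 34.9% and 35.5%, with medians of -0.01 in each. Without fetal replicate 3, 19 were tested, with 6 higher and 4 lower, 6 and 7, and 7 and 9, and medians of 0.14, -0.10 and 0.03. Tgfb1, the ligand TGF-beta 1 that induces Snail factors, was at 71.7 to 84.3 CPM at E18, 90.8 to 93.9 at P1 and 289.7 to 301.5 in adult libraries. It rose from neonatal to adult (log2 1.69 ± 0.07, edgeR adjusted p = 1.24e-07). The other ligand genes of the list, named after their values were seen, fell at that step. Tgfb2 had means of 443 ± 109, 392 ± 10.5 and 137 ± 39.2 CPM (-1.52, adjusted p = 0.000483), and Tgfb3 had means of 906 ± 383, 1734 ± 15.3 and 559 ± 209.9 CPM (-1.63, adjusted p = 0.00419). The receptor gene Tgfbr2 rose at both steps, with means of 55.1 ± 2.53, 102 ± 3.12 and 186 ± 32.3 CPM (log2 0.89, adjusted p = 0.000470, and 0.87, adjusted p = 0.000109). Id2, which binds and blocks E proteins such as TCF12, rose at both steps, with means of 18.1 ± 1.88, 53.7 ± 1.24 and 102 ± 17.3 CPM (log2 1.57, adjusted p = 4.74e-05, and 0.93, adjusted p = 0.000126). Tcf12 itself, a dimer partner of Twist proteins, fell from neonatal to adult, with means of 87.3 ± 6.52, 92.2 ± 5.87 and 39.3 ± 1.21 CPM (log2 -1.23, adjusted p = 1.56e-06).

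Genes of cell junctions and adhesion came from a list of 16, of which 9 were tested. The tested genes include the mesenchymal cadherin genes Cdh2 and Cdh11 and the catenin genes Ctnna1 and Ctnnb1. The epithelial genes Epcam, Crb3, Cldn1, Cldn3, Cldn4 and Cldn7 were not tested in the main fit. The counts therefore do not describe the epithelial targets of EMT factors alone. From fetal to neonatal 1 was higher and 4 lower, from neonatal to adult 1 was higher and 7 lower, and from fetal to adult 8 were lower (medians -0.12, -1.01 and -1.51). The shares of all genes tested called higher and lower were 18.3% and 18%, 31.6% and 31.8%, and 34.9% and 35.5%. Without fetal replicate 3, which held most of the Cdh1 reads, the counts were 1 and 5, 1 and 7, and 1 and 6 (medians -0.20, -1.01 and -1.21). Without adult replicate 1, 11 were tested, of which 6 were lower from fetal to neonatal, 1 higher and 7 lower from neonatal to adult and 8 lower from fetal to adult (medians -0.52, -1.01 and -1.86). Cdh1 itself stayed between 0.612 and 1.498 CPM in the 6 neonatal and adult libraries. The mesenchymal cadherin gene Cdh11 was at 413 to 506 CPM at E18, 423 to 434 at P1 and 89.5 to 91.8 in adult libraries and fell from neonatal to adult (log2 -2.23 ± 0.08, edgeR adjusted p = 6.03e-08). Cdh3 (P-cadherin) had means of 184 ± 16.3, 184 ± 4.51 and 48.0 ± 5.71 CPM and fell at the same step (-1.94, adjusted p = 4.13e-07). Ctnna1 (alpha-catenin) fell at both steps, from 798 ± 49.8 to 495 ± 3.98 and 279.7 ± 9.89 CPM (-0.69, adjusted p = 0.000141, and -0.82, adjusted p = 8.32e-06). Tjp1, a scaffold of tight junctions, did so too, with 245 ± 22.9, 171 ± 7.35 and 61.5 ± 7.67 CPM (-0.52, adjusted p = 0.00379, and -1.47, adjusted p = 2.72e-06). Cdh11, Cdh3, Ctnna1 and Tjp1 were thus lower in adult than in neonatal cultures, as were Snai2 and Zeb1, whereas Snai1 was higher. Ocln was the 1 tested gene of the list called higher from neonatal to adult (log2 3.02 ± 0.87, edgeR adjusted p = 0.0145). It was at 1.62, 2.12 and 16.7 CPM in the fetal, 0.991, 0.883 and 1.23 in the neonatal and 9.41, 7.80 and 7.86 in the adult libraries.

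Thy1 (rn6 chr8:48382121-48386935, plus strand, 4 exons) separated fetal from postnatal cultures. It was at 95.8, 91.6 and 43.3 CPM in the fetal, 330.4, 318 and 315 in the neonatal and 258, 275 and 331 in the adult libraries. All 3 fetal libraries lay below the other 6, and neonatal and adult libraries overlapped (means 76.9 ± 29.2, 321 ± 8.24 and 288 ± 38.2 CPM, SD, n = 3). Thy1 rose 4.17-fold from fetal to neonatal (log2 2.06 ± 0.26, edgeR adjusted p = 0.000668) and was 3.74-fold higher in adult than in fetal cultures (1.90 ± 0.26, adjusted p = 0.000184). The neonatal to adult difference was -0.16 ± 0.25 (adjusted p = 0.605). Fetal replicate 3 had 0.462 times the mean of fetal replicates 1 and 2, and over the fits with 1 library left out the fetal to neonatal difference stayed between 1.78 and 2.25.

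Ddr2 (rn6 chr13:88316405-88361682, minus strand, 16 exons) was highest in the neonatal cultures. It was at 226, 239 and 189.5 CPM in the fetal, 344, 347 and 318 in the neonatal and 171, 144 and 144 in the adult libraries, with no overlap between any pair of ages (means 218 ± 25.5, 336 ± 16.3 and 153 ± 15.4 CPM, SD, n = 3). It was 1.54-fold higher in neonatal than in fetal cultures (log2 0.63 ± 0.10, edgeR adjusted p = 0.00191), fell 2.2-fold from neonatal to adult (-1.14 ± 0.10, adjusted p = 1.41e-05) and was 1.42-fold lower in adult than in fetal cultures (-0.51 ± 0.10, adjusted p = 0.00154). Ddr1, the other collagen receptor of the family, had means of 158, 159 and 128 CPM and a small fall from neonatal to adult (-0.31, adjusted p = 0.0324, called in 5 of 9 fits with 1 library left out). The ratio of Ddr2 to Ddr1 per kilobase was 1.17 ± 0.139 in fetal, 1.80 ± 0.143 in neonatal and 1.02 ± 0.0810 in adult cultures (SD, n = 3, no test).

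Vim (rn6 chr17:80882715-80891200, plus strand, 9 exons) was by far the most abundant of the 9 genes per length, and its differences between ages were small. It was at 3707, 3364 and 3945 CPM in the fetal, 4211, 4197 and 4285 in the neonatal and 4806, 5338 and 5784 in the adult libraries. There was no overlap between any pair of ages (means 3672 ± 292, 4231 ± 47.5 and 5309 ± 490.0 CPM, SD, n = 3). Vim was 1.45-fold higher in adult than in fetal cultures (log2 0.53 ± 0.10, edgeR adjusted p = 0.00103) and 1.25-fold higher in adult than in neonatal ones (0.33 ± 0.10, adjusted p = 0.0172). The second call ended without neonatal replicate 1, 2 or 3 or adult replicate 3 (adjusted p = 0.0645, 0.0655, 0.0587 and 0.0626). From fetal to neonatal the difference was 0.20 ± 0.10 (adjusted p = 0.137), and 0.26 (adjusted p = 0.0217) without fetal replicate 3.

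The muscle-type intermediate filament gene Des (desmin), a relative of Vim, fell at both steps. It was at 389, 404 and 338 CPM in the fetal, 215, 226 and 246 in the neonatal and 16.5, 14.7 and 12.6 in the adult libraries (log2 -0.72 ± 0.10, adjusted p = 0.00105, and -3.97 ± 0.12, adjusted p = 2.19e-08, edgeR). Nes (nestin), a filament of progenitor cells, had means of 44.9 ± 2.84, 24.4 ± 0.469 and 24.9 ± 5.19 CPM and fell from fetal to neonatal (-0.88, adjusted p = 0.00117). Msc (musculin), a basic helix-loop-helix relative of Tcf21, had low means of 1.54 ± 0.507, 3.36 ± 0.125 and 5.63 ± 0.715 CPM and was higher in adult than in fetal cultures (1.88, adjusted p = 0.000153). In all, 6 of 8 relatives of the 9 genes were tested: 2 were higher and 2 lower from fetal to neonatal, 1 and 3 from neonatal to adult, and 2 and 3 from fetal to adult. The shares over all genes tested were 18.3% and 18%, 31.6% and 31.8%, and 34.9% and 35.5%. Without fetal replicate 3, 7 were tested, with 2 and 2, 2 and 3, and 3 and 3.

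**Figure D4:**
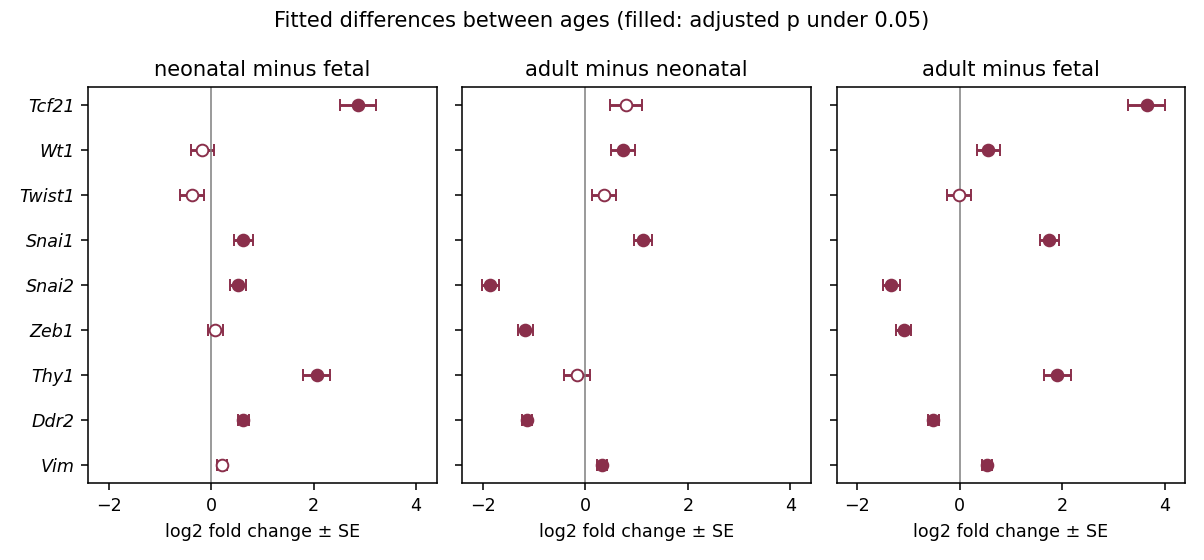
Fitted log2 fold change ± SE of the 9 genes in the 3 comparisons of ages, filled where the adjusted p of the edgeR test was under 0.05. Tcf21 (2.86) and Thy1 (2.06) differ most from fetal to neonatal, Snai1 lies above 0 in all 3 panels, and Snai2, Zeb1 and Ddr2 lie below 0 in both adult comparisons.

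Levels can be compared between genes only per length, and on the scale of mean CPM per kilobase of exon the order of the 9 genes changed with age. Such levels depend on the exon lengths of the annotation, which were not checked. In fetal cultures Vim (2045) was followed by Ddr2 (62.1), Thy1 (57.9), Snai2 (25.8), Snai1 (23.2), Zeb1 (20.8), Twist1 (12.9), Tcf21 (9.65) and Wt1 (3.89). The fetal libraries of Ddr2 and Thy1, of Snai2 and Snai1, of Snai1 and Zeb1, and of Twist1 and Tcf21 overlapped, so these neighbours are not separated. In neonatal cultures the order was Vim (2356), Thy1 (242), Ddr2 (95.8), Tcf21 (70.3), Snai2 (37.0), Snai1 (35.9), Zeb1 (22.1), Twist1 (9.94) and Wt1 (3.45), with overlap between Snai2 and Snai1. In adult cultures it was Vim (2956), Thy1 (217), Tcf21 (122), Snai1 (78.1), Ddr2 (43.6), Twist1 (12.8), Snai2 (10.2), Zeb1 (9.77) and Wt1 (5.75), with overlap between Tcf21 and Snai1, between Snai2 and Zeb1 and between Zeb1 and Wt1. Tcf21 thus stood below Ddr2 in the younger cultures and above it in the adult ones, and Vim led and Wt1 closed each order.

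Across the 9 libraries, which fall into 3 ages, some of the genes ran together on the log2 CPM scale. The libraries share depth and scaling, so the coefficients are descriptions with no test. Pearson's r was 0.943 between Snai2 and Ddr2, 0.934 between Snai2 and Zeb1 and 0.933 between Tcf21 and Thy1. It was 0.878 between Snai1 and Vim, -0.896 between Zeb1 and Vim, -0.764 between Snai1 and Snai2 and 0.421 between Tcf21 and Wt1. Among 8935 other genes with at least 10 CPM in their highest age, those most like Tcf21 over the 9 libraries were Fgfr3 (r = 0.9963), a fibroblast growth factor receptor, Ebf3 (r = 0.9963), an early B cell factor family transcription factor, and C1qtnf1 (r = 0.9953), a secreted C1q-related protein. Fgfr3 had means of 24.0 ± 3.40, 62.9 ± 2.597 and 86.6 ± 13.9 CPM. An r over 0.9 with Tcf21 was reached by 670 genes, or 7.5% of those compared, so this course over the ages was a common one. With Snai2, Zeb1, Thy1 and Ddr2 an r over 0.9 was reached by 9.38%, 11.8%, 4.43% and 4.04% of those compared. The genes most like Wt1 were Smad3 (r = 0.9738), a transducer of TGF-beta signals, Dtnb (r = 0.9683), a dystrobrevin, and Layn (r = 0.9573), a hyaluronan receptor. Smad3 had means of 88.6 ± 1.97, 88.4 ± 1.21 and 117 ± 28.8 CPM, with a wide adult spread as in Wt1, and 28 genes (0.313%) passed an r of 0.9 with Wt1.

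The other fibroblast genes, from a list of 20 of which 18 were tested, changed in both directions. From fetal to neonatal 8 were higher and 1 lower, from neonatal to adult 8 and 8, and from fetal to adult 9 and 5, with medians of 0.60, -0.77 and 0.40 on the log2 scale. All genes tested had shares of 18.3% higher and 18% lower, 31.6% and 31.8%, and 34.9% and 35.5%. Without fetal replicate 3 the counts were 8 and 2, 8 and 8, and 9 and 7, with a fetal to adult median of 0.08. Without both that library and adult replicate 1 they were 12 and 3, 8 and 9, and 9 and 6. Calls over all genes from fetal to neonatal rose too, from 4114 of 11337 in the main fit to 6088 of 11483 in that setting. Pi16, a surface marker of adventitial fibroblasts, was at 3.08 to 3.57 CPM at E18, 5.72 to 6.80 at P1 and 179.8 to 199 in adult libraries (log2 4.95 ± 0.10 from neonatal to adult, edgeR adjusted p = 2.13e-09). Mfap5, a protein of elastic microfibrils, was at 28.7 to 32.7, 22.3 to 23.4 and 323 to 339 CPM (3.86 ± 0.07, adjusted p = 2.13e-09). Gsn (gelsolin, which severs actin filaments) had means of 213 ± 9.38, 210.0 ± 6.76 and 407 ± 12.1 CPM and rose at that step as well (0.95, adjusted p = 1.88e-06). Meox1, a homeobox factor of activated fibroblasts, had means of 7.49 ± 0.149, 5.06 ± 1.12 and 0.547 ± 0.175 CPM and fell (-3.20, adjusted p = 9.53e-06). Pdgfra, the platelet-derived growth factor receptor of fibroblasts, was at 669, 384 and 245 CPM in adult replicates 1, 2 and 3, the order seen in Wt1 and Aldh1a2.

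Markers of other cell types moved with age in the same libraries, and their part in the results above was not tested. For scale, 31.6% of all genes tested were higher and 31.8% lower in adult than in neonatal cultures, and 34.9% and 35.5% against fetal ones. The 13 cardiomyocyte markers in the table, of 14 listed, summed to 10600 to 14900 CPM at E18, 6650 to 7320 at P1 and 306 to 320.0 in adult libraries. All 13 were lower in adult than in fetal and in neonatal cultures, and in the adult libraries Tnnt2 made up nearly all of the sum (303 to 316 CPM) and Csrp3 was at 0. All 12 macrophage markers were tested and higher in adult than in younger cultures, with sums of 14.99 to 70.8, 166 to 183 and 4180 to 5850 CPM. Of these, Cd163 was at 0 in all fetal and neonatal libraries. Endothelial markers summed to 22.7 to 23.5, 30.1 to 35.0 and 105 to 114 CPM, and mural cell markers to 1440 to 2290, 2710 to 2780 and 313 to 700 CPM. Tie1 made up most of the adult endothelial sum (68.6 to 72.5 CPM). Of the 8 endothelial markers tested, 5 were higher and 2 (Kdr and Tek) lower in adult than in neonatal cultures. Epicardial or mesothelial markers summed to 73.9 to 229, 27.8 to 30.9 and 5.62 to 14.5 CPM, with all 6 tested lower in adult than in fetal cultures. Lymphocyte markers summed to 1.24 to 3.08, 2.40 to 2.79 and 106 to 129 CPM, Schwann and neural markers to 195 to 288, 333 to 342 and 382 to 480 CPM, and erythroid markers to at most 0.216 CPM. Of the lymphocyte markers, Cd4, Cd8a and Lck were tested and all 3 were higher in adult than in younger cultures, Cd4 with 82.2 to 112 CPM in the adult libraries, whereas Cd3d, Cd79b and Ms4a1 were listed at 0 in all 9 libraries.

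Within the adult group, replicate 1, which had the highest Tcf21, Wt1 and Snai1, had the lowest sums of macrophage markers (4182 CPM, against 5104 and 5845) and of mural markers (313 CPM, against 651 and 700.1). It also had the lowest sum of fibroblast markers (22680 CPM, against 28010 and 30050), most of it Col1a1 and Col3a1. Lum and Fstl1 were lowest in adult replicate 1 too. Pdgfra (669, against 384 and 245), Dcn (471, against 359 and 230), Gsn (421, against 398 and 401.5) and Dpt (54.4, against 51.6 and 43.0) were highest there. The sum of epicardial or mesothelial markers in adult replicate 1 was the highest (14.5 CPM, against 6.57 and 5.62), most of it Msln (12.3 CPM, against 4.55 and 3.82). Fetal replicate 3, which had the lowest Tcf21 and Thy1, had 70.8 CPM of macrophage markers, against 15.6 and 14.99, and 229 CPM of epicardial or mesothelial markers, against 75.8 and 73.9. Most of the latter excess was Krt8 (144 CPM, against 10.15 and 11.3) and Krt18 (32.3, against 10.15 and 11.2). Krt19 (23.6, against 27.4 and 24.4) and Gpm6a (2.02, against 2.81 and 3.31) were lower. Msln was level (18.65, against 18.8 and 17.99), and Upk1b was slightly higher (7.12, against 5.56 and 5.25). Without both adult replicate 1 and fetal replicate 3, 6 of the 9 genes were called from fetal to neonatal, 8 from neonatal to adult and 7 from fetal to adult, beside 6088, 8690 and 8941 of the 11483 genes tested in that setting.

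**Figure D5:**
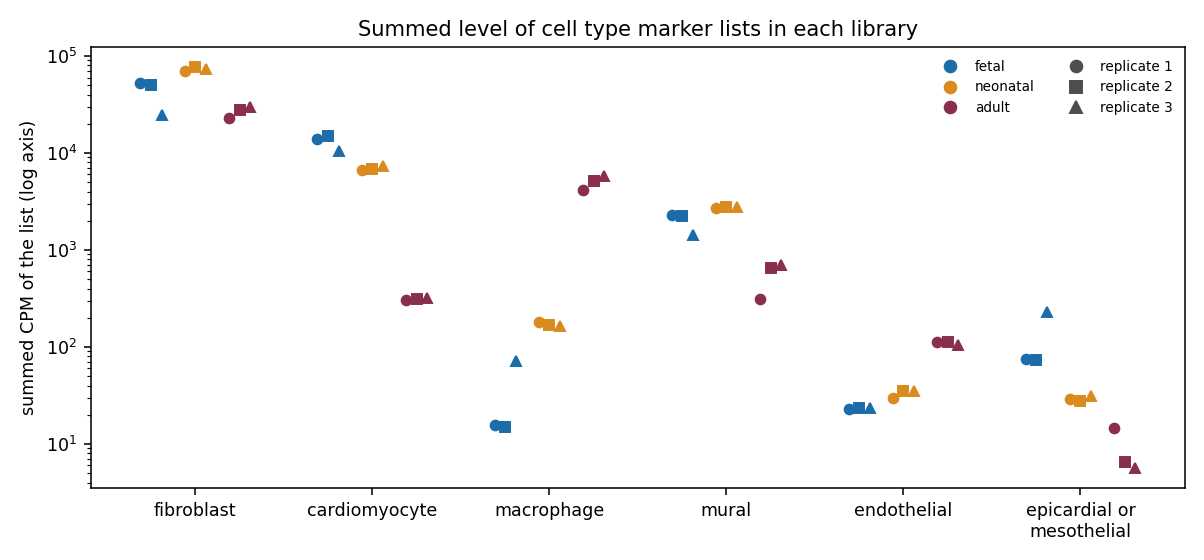
Summed CPM of the fixed marker lists of 6 cell types in each library (log axis), coloured by age, with marker shape for the replicate. Adult libraries hold 4180 to 5850 CPM of macrophage markers and 306 to 320 CPM of cardiomyocyte markers, and fetal replicate 3 stands off from fetal replicates 1 and 2 in the fibroblast, macrophage and epicardial sums. Col1a1 and Col3a1 make up most of each fibroblast sum. Krt8 and Krt18 make up most of the excess of fetal replicate 3 in the epicardial or mesothelial sum, while Krt19 and Gpm6a are lower in that library.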

How the data were processed

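The authors deposited raw read counts per gene for 9 libraries, counted per the file headers by featureCounts 1.6.3 on rn6 gene models from sorted alignments, with no option set beyond annotation and output. Trimmomatic 0.39 and STAR 2.5.2b are named in the submitters' processing notes. With no strand option given, reads of overlapping antisense genes are not told apart by strand; none of the 9 genes shared exon bases with another gene of the table. The authors' exon length per gene, per the file headers in bases, served to express levels per kilobase. A deposited table of scaled counts was not used here.

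Counts were scaled with TMM, filtered with filterByExpr and tested with robust edgeR 4.0.16 quasi-likelihood tests (R 4.3.3), with age as the only term in 1 fit of all 9 libraries and Benjamini-Hochberg adjustment over 11337 genes. DESeq2 1.42.0 and 18 other settings were alternatives. No library pair agreed within sampling noise. Replicate numbers did not pair the libraries. The labels name no batch.

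The 9 genes and all lists were chosen with earlier results of these data known. From each list at most the 4 called genes with the smallest p over any difference among ages are named, plus those a result turns on. Promoters are RefSeq sequences of GRCr8, and expression positions are rn6.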

Additional observations from a re-analysis of the deposited data

How the results depend on the processing

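Over 19 alternative settings and 1 added after the data were seen (without fetal replicate 3 and adult replicate 1), 25 of the 27 differences (9 genes in 3 comparisons) kept their direction, and 11 of the 19 called kept their call. The exceptions in direction were uncalled in the main test. Zeb1 from fetal to neonatal was -0.0842 with library size alone. Twist1 from fetal to adult was 0.0397 with the replicate block, 0.24 in the added setting, and -0.18 to 0.34 with each library left out in turn. Tested against 1.5-fold, 2 of the 9 genes and 930 of all genes were called from fetal to neonatal, 4 and 3232 from neonatal to adult, and 5 and 4332 from fetal to adult. With each library left out in turn, 3 to 6 of the 9 genes and 2476 to 4679 of all genes were called from fetal to neonatal, and 6 and 6088 in the added setting. The any-age test had no value against 1.5-fold or with 2 ages. With library size alone, the median of all genes moved to -0.18 from fetal to neonatal and -0.12 from fetal to adult, and 29.0% of the fetal to neonatal calls were higher, against 50.4%. Same-numbered libraries did not deviate together (correlations -0.065 to 0.052). The fit with the replicate block called 5, 6 and 7 of the 9 genes (3713, 6985 and 7801 of all genes) and lost the Wt1 call from fetal to adult (0.53, adjusted p = 0.0647, edgeR). The cause of these changes was not tested. Depth limits Krt19 and Sema3d in the adult libraries, and 3 libraries an age limit every test.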
